A study of Mus musculus with 12 samples.

Results

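The Tceal and Bex genes encode small proteins of a mammalian family, most of them clustered on the X chromosome. The values below describe 9 of them, Tceal8, Wbp5, Tceal1, Tceal3, Tceal5, Tceal6, Bex1, Bex2 and Bex4, among the 24259 gene symbols measured in mouse oocytes. The members were chosen by measured values as well as by name, because Tceal8 and Wbp5 were known to be higher in the libraries from Lsm14b-KO mice. The difference between KO and WT is therefore given for members as a description with no p-value.

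Oocytes at the germinal vesicle (GV) stage, the stage of meiotic arrest before maturation, came from WT and Lsm14b-KO mice on the C57BL/6J background. The KO mice are homozygous for the tm1a allele of Lsm14b, a knockout-first insertion that carries a reporter, and the gene encodes an RNA-binding protein of stored maternal mRNA. Mice were 3 weeks old and had received 5 IU of PMSG, a gonadotropin that stimulates follicle growth, 46 h earlier. About 1500 oocytes were lysed in the presence of cycloheximide, which holds ribosomes on mRNA, and the lysate was separated on a sucrose gradient. Fractions 1 to 10 formed the RNP pool, with RNA not engaged by many ribosomes, and fractions 11 to 28 formed the polysome pool. Each genotype and pool had 3 libraries, 12 in all. The labels do not say that replicates came from separate animals, and oocytes of many animals were pooled, so p-values measure the spread between libraries, which may be technical.

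Values are FPKM, fragments per kilobase of transcript scaled to the mapped fragments, which are relative to the total of each library. The steps between low FPKM values gave an estimated depth of 4.88 to 7.89 M fragments per library, assuming an effective length 200 bases below the annotated one. By the same estimate 1 fragment was worth 0.155 to 0.250 FPKM for Wbp5. Lsm14b itself lay at 11.3, 15.3 and 13.2 FPKM in the WT polysome libraries and at 0.260, 0 and 0.0876 FPKM in the KO ones. In the RNP pool it lay at 34.6, 29.3 and 27.4 FPKM in WT and at 0.893, 0.0627 and 0 FPKM in KO, so the libraries match their genotype labels. As to the oocyte identity given by the labels, all 14 of 14 oocyte markers averaged 1 FPKM or more. So did 7 of 14 granulosa and cumulus markers, but those 14 summed to at most 163 FPKM in any library. The summed level of the oocyte markers in the polysome pool was 24219.7 to 26312.1 FPKM in WT and 26084.7 to 28059.2 FPKM in KO. In the RNP pool it was 7760.2 to 8345.2 FPKM in WT and 10451.3 to 10757.8 FPKM in KO. The growth factor gene Gdf9 was the most abundant oocyte marker at a mean of 10019 FPKM.

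TCEAL proteins are named for their likeness to transcription elongation factor A (SII), and BEX proteins (brain expressed X-linked) are small adaptor-like proteins best known from brain. Wbp5 is the older symbol of Tceal9. The family arose in placental mammals and its genes share a compact structure with a single coding exon. The annotation gave 1 coding exon in every annotated coding transcript of the members.

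All members lie on the X chromosome. Tceal6 was the outermost on one side, at chrX:135208686-135210687, and Tceal1 on the other, at chrX:136707982-136709873 (RefSeq, GRCm38.p6). Tceal8 lies on the minus strand at chrX:136168984-136172251, and Wbp5 on the plus strand at chrX:136245080-136247139, 76.1 kb away between their lower coordinates. Bex4 lies at chrX:136138996-136140443, at −30.0 kb from Tceal8, on its other side. Between Tceal8 and Wbp5 lie Tceal5, Bex1 and Tceal7. In the GENCODE annotation Tceal7 overlaps Bex1 on the opposite strand, while the RefSeq models of the pair do not overlap. Under the GENCODE models, reads from the overlap cannot be told apart without strand.

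The promoters of Tceal8, Wbp5, Bex4 and Tceal5 are shown as examples of family promoters that hold a spaced pair of short motifs. Not all members hold it, and Tceal1 and Bex2 lack it at this spacing. All 12 family genes of the table had an entry in the RefSeq promoter table, which runs from 250 bases before to 50 bases after each gene start. Capitals mark TGACG followed after 7 bases by CACGTG, or by CATGTG in Wbp5. The marked stretch lies after the RefSeq gene start in Tceal8 (bases 256 to 273 of the window) and across it in Wbp5 (bases 247 to 264). In Bex4 and Tceal5 it lies before the start.
Tceal8 promoter (chrX:136172202-136172501, minus strand): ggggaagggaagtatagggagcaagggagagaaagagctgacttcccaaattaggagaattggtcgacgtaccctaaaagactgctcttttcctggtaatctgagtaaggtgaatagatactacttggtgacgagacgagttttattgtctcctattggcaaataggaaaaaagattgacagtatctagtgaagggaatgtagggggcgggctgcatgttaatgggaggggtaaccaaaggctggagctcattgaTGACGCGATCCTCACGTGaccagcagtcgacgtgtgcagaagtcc
Wbp5 promoter (chrX:136244830-136245129, plus strand): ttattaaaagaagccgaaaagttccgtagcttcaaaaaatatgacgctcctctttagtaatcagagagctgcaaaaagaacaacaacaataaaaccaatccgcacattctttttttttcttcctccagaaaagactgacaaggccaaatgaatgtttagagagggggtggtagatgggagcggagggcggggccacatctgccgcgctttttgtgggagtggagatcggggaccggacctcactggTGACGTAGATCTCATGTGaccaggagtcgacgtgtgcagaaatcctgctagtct
Bex4 promoter (chrX:136138746-136139045, plus strand): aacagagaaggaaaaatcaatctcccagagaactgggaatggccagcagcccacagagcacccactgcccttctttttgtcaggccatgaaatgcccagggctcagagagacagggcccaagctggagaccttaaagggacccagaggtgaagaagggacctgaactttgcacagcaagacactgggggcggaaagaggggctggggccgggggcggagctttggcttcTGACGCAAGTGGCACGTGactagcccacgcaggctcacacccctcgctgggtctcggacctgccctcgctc
Tceal5 promoter (chrX:136203835-136204134, minus strand): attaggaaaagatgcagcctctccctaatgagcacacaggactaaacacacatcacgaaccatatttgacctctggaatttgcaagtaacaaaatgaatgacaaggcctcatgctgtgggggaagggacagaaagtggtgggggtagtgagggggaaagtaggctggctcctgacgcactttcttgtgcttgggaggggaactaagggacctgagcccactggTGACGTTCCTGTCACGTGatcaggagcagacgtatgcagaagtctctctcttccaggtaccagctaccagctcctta

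Searched on both strands, TGACGNNNNNNNCACGTG was held by 15 of 27025 promoters, 1 per gene symbol (0.0555%). These 15 included 5 of the family, those of Tceal8, Tceal5, Tceal6, Bex1 and Bex4. Armcx1 and Armcx6, X-linked genes near the cluster, were among the others. A further promoter of Tceal3 also held the spaced pair. The gene models behind the FPKM table differ from RefSeq, whose lower coordinate minus that of the table was −75536 bases for Tceal3, −81 for Tceal1 and −47 for Bex4, so these promoters need not be those of the transcripts measured. With any base in the middle of the second motif (TGACGNNNNNNNCANGTG), 25 promoters held it (0.0925%), and Wbp5 joined the family genes. The spacing was chosen after these sequences had been seen. The single motifs are common: CACGTG was in 7.24% of promoters, TGACG in 21.0% and GGGCGG in 35.9%. Of the 12 family genes 8 held CACGTG, 11 held TGACG and 8 held GGGCGG.

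The longest run shared by the Tceal8 and Wbp5 promoters was AGTCGACGTGTGCAGAA, of 17 bases, which 3 promoters of the table held. It lies at bases 280 to 296 of the Tceal8 window and at bases 271 to 287 of the Wbp5 window, after the RefSeq start of each gene, which follows base 250. A match describes letters in a window and not the binding of a factor.

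Tceal8 was the most abundant member. In the WT polysome libraries it lay at 6.83, 8.15 and 8.86 FPKM, and in the KO polysome libraries at 52.5, 55.1 and 54.0 FPKM. In the WT RNP libraries it lay at 7.12, 7.30 and 11.6 FPKM, and in the KO RNP libraries at 90.7, 103.9 and 84.3 FPKM. Every KO library exceeded every WT library of its pool. This separation was part of the choice of the gene.

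The mean level of Tceal8 in the polysome pool was 7.94 ± 1.03 FPKM in WT and 53.9 ± 1.28 FPKM in KO (SD, n = 3). In the RNP pool it was 8.68 ± 2.55 FPKM in WT and 93.0 ± 9.98 FPKM in KO (SD, n = 3). The ratio of the means was 6.78 in the polysome pool and 10.7 in the RNP pool. On the log2(FPKM + 1) scale, which understates changes of low genes, KO minus WT was 2.62 (SE 0.24) in the polysome pool and 3.30 (SE 0.22) in the RNP pool. By level Tceal8 moved from rank 5157 to 5851 among the gene symbols in the WT polysome libraries to rank 1570 to 1620 in the KO ones.

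Wbp5 was listed at 0 in all 3 WT polysome libraries. In the KO polysome libraries it lay at 23.9, 15.6 and 11.1 FPKM. The zeros were part of what chose the gene, and no fold is given against them. In the RNP pool it lay at 4.60, 14.6 and 1.77 FPKM in WT and at 17.7, 10.2 and 16.1 FPKM in KO. These groups overlapped, since WT replicate 2 exceeded KO replicate 2, and KO minus WT was 1.30 (SE 0.55) on the log2(FPKM + 1) scale. The value was 0.71 without WT RNP replicate 3 and 1.96 without WT RNP replicate 2. Zeros in this table need not mean absence. Gapdh and Ppia, expressed in most cells, had at most 0.883 and 0.993 FPKM in any library, and the ribosomal protein gene Rps27 was above 0 in 3 of 12 libraries. These genes were picked after their values were seen.

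**Figure D1:**
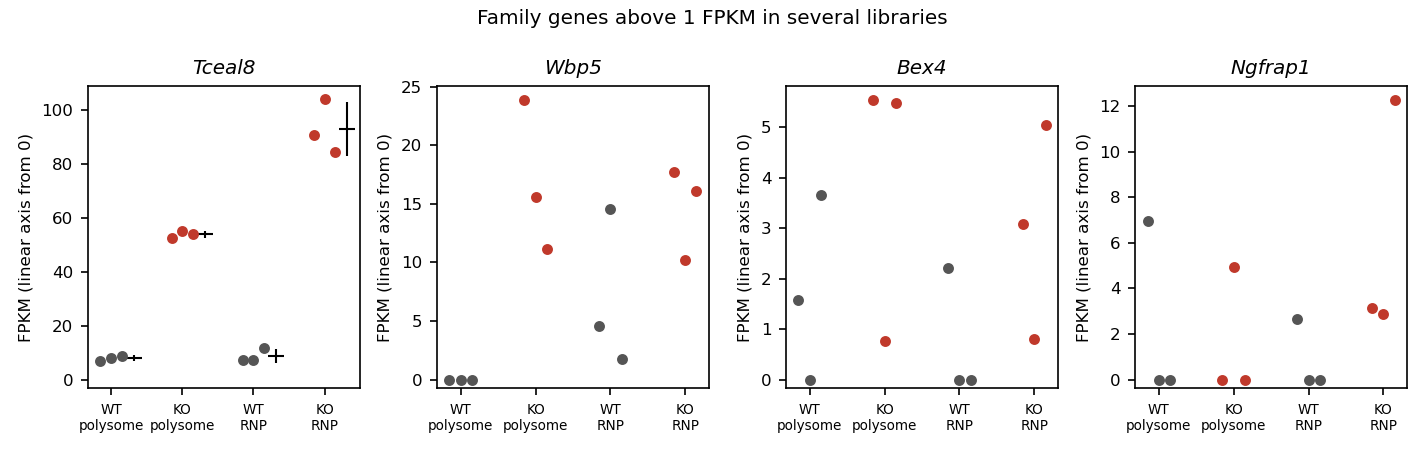
FPKM of Tceal8, Wbp5, Bex4 and Ngfrap1 (Bex3) in each of the 12 libraries (points; grey, WT; red, KO), with the mean and SD of each group for Tceal8 alone. Tceal8 was between 6.83 and 11.6 FPKM in WT libraries and between 52.5 and 103.9 FPKM in KO libraries, and the axes differ between panels.

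The other members were low. Bex4 was above 0 in 9 of 12 libraries and reached 5.54 FPKM. It lay at 1.58, 0 and 3.65 FPKM in the WT polysome libraries and at 5.54, 0.756 and 5.48 FPKM in the KO ones. In the RNP pool Bex4 lay at 2.199, 0 and 0 FPKM in WT and at 3.09, 0.804 and 5.04 FPKM in KO. The WT and KO libraries overlapped in both pools. Bex1 was above 0 in 3 libraries, KO RNP replicate 1 (0.206 FPKM) and KO polysome replicates 2 (1.94 FPKM) and 3 (11.0 FPKM). Bex2 was above 0 in KO polysome replicate 1 (1.59 FPKM) and KO RNP replicate 2 (1.10 FPKM). Tceal1 was listed at 5.01 FPKM in KO polysome replicate 1 and at 0 elsewhere, and Tceal5 at 0.957 FPKM in WT polysome replicate 3 and at 0 elsewhere. Tceal3 and Tceal6 were at 0 in all 12 libraries.

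FPKM is per length, so the levels of genes can be ordered. By the highest library the order was Tceal8 (103.9 FPKM), Wbp5 (23.9 FPKM), Bex1 (11.0 FPKM), Bex4 (5.54 FPKM), Tceal1 (5.01 FPKM), Bex2 (1.59 FPKM) and Tceal5 (0.957 FPKM). Bex1 and Tceal1 hold their places through 1 library each. In the KO polysome libraries Tceal8 was 2.199 to 4.85 times as high as Wbp5, and in the KO RNP libraries 5.13 to 10.1 times. In the WT RNP libraries the ratio ran from 0.501 to 6.56, so the order of the pair was not stable there.

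Outside the members, the table held 3 other family genes. Ngfrap1, the older symbol of Bex3, lay at 3.16, 2.89 and 12.3 FPKM in the KO RNP libraries and at 2.64, 0 and 0 FPKM in the WT RNP ones. In the polysome pool it was above 0 in WT replicate 1 (6.97 FPKM) and KO replicate 2 (4.94 FPKM). Tceal7 was at 0 throughout, and Bex6, on chromosome 16, was above 0 in KO RNP replicate 1 at 2.08 FPKM.

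Paralogs of this family can share reads. Of the 50-base words in the annotated transcripts of Tceal8, 0.806% occurred in another gene, and for Wbp5 and Tceal1 the share was 0%. The share was 49.7% for Bex4, 45.3% for Tceal6, 30.9% for Bex1, 25.4% for Tceal5, 22.2% for Bex2 and 12.9% for Tceal3. The promoters of Bex1 and Bex4 shared 89.7% of their 20-base words. The low values of these 6 genes are therefore uncertain, while Tceal8 and Wbp5 shared little or none of their 50-base words. Words were compared with annotated transcripts alone, so reads shared with other parts of the genome were not examined.

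The comparison of pools within a genotype asks where on the gradient an mRNA lay, and it is not the contrast by which the members were chosen. A filter of at least 1 FPKM in at least 3 libraries of a comparison let 3 of the 9 members through, Tceal8, Wbp5 and Bex4, and left 6 out, in each comparison. The tests used limma on log2(FPKM + 1) with Benjamini-Hochberg adjustment over all genes at 0.05. In WT, 1406 of 9574 genes differed between the pools (14.7%; 7.97% higher in polysomes and 6.72% lower). In KO, 2881 of 9851 genes differed (29.2%; 15.5% higher and 13.8% lower). Each pool is scaled to its own total, so a difference is a relative enrichment and not a share of the mRNA.

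Tceal8 was lower in polysomes than in the RNP pool of KO oocytes, by −0.77 (SE 0.13) on the log2 scale, with a limma adjusted p = 0.00203. All 3 KO polysome libraries were below all 3 KO RNP libraries. In WT the difference was −0.09 (SE 0.37; limma adjusted p = 0.901), and the libraries of the pools overlapped. Its sign turned without WT RNP replicate 3 (0.12), and it was 0.00 without WT polysome replicate 1 and −0.20 without WT RNP replicate 1. KO minus WT of the pool difference was −0.68 (SE 0.30), given with no p-value because it contains the values that chose the gene. Whether the WT and KO pool differences of Tceal8 are unlike is therefore not settled by these values.

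Wbp5 was listed at 0 in WT polysomes and was above 0 in all 3 WT RNP libraries. It passed the filter through the RNP libraries alone and the zeros had helped to choose it. Its direction was therefore set in advance, and no p-value is given. In KO, Wbp5 differed between the pools by 0.16 (SE 0.31; limma adjusted p = 0.742), and the sign turned without KO polysome replicate 1 (−0.11) or KO RNP replicate 2 (−0.06), while the value was 0.41 without KO polysome replicate 3. Bex4 differed by 0.64 (SE 0.72; limma adjusted p = 0.607) in WT and by 0.25 (SE 0.62; limma adjusted p = 0.804) in KO. In WT it was 0.36 without WT RNP replicate 2 or 3 and 1.23 without WT polysome replicate 2, and it failed the filter and has no value without WT polysome replicate 1 or 3 or WT RNP replicate 1. With 1 library left out the KO value was −0.24 (KO RNP replicate 2) to 0.88 (KO polysome replicate 2), so its direction is not set.

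**Figure D2:**
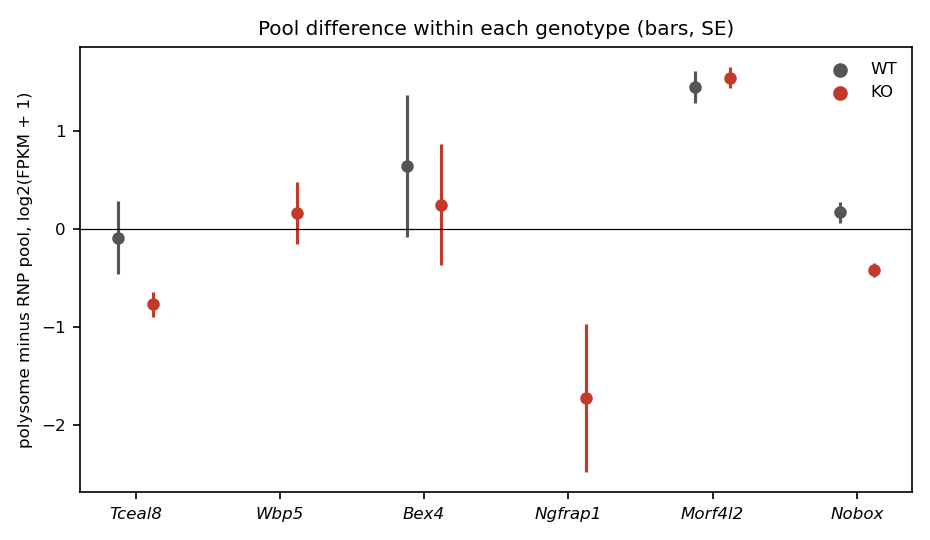
Polysome minus RNP pool, on the log2(FPKM + 1) scale with SE, for family genes, the X-linked neighbour Morf4l2 and the oocyte gene Nobox (grey, WT; red, KO; n = 3 libraries a group). Tceal8 was at −0.09 in WT and −0.77 in KO, Morf4l2 was above 0 in both, and Wbp5 in WT is not drawn because its polysome libraries are listed at 0.

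The genes whose pattern over the 12 libraries was most like that of Tceal8 (6677 genes with mean FPKM of 5 or more were compared) are given as a description. The libraries share genotype and pool, which shape every such r. Nobox, a homeobox factor needed for follicle formation, had r = 0.989 with Tceal8, and its group means were 375 FPKM in WT polysomes, 1114 FPKM in KO polysomes, 334 FPKM in the WT RNP pool and 1492 FPKM in the KO RNP pool. Next came the transporter gene Abcb6 (r = 0.980) and Patl2 (r = 0.976), which encodes an RNA-binding protein of oocytes. Surf4 (r = 0.966) and Extl1 (r = 0.959) followed. Wbp5 was number 331 in this order, with r = 0.737.

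Nobox was picked for its likeness to Tceal8 over these libraries, so its pool differences are a description with no p-value. Polysome minus RNP pool was −0.42 (SE 0.07) in KO and 0.17 (SE 0.11) in WT. The 5 genes most like Wbp5 were Srbd1 (r = 0.936), Zfp646 (r = 0.921), Mapk1ip1l (r = 0.912), Fbxo3 (r = 0.910) and Trim28 (r = 0.909), a corepressor of retroelements. Fbxo3 had means of 2.14 FPKM in WT polysomes, 8.62 FPKM in KO polysomes, 8.37 FPKM in the WT RNP pool and 9.22 FPKM in the KO RNP pool. None of these 10 genes lies on the X chromosome.

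**Figure D3:**
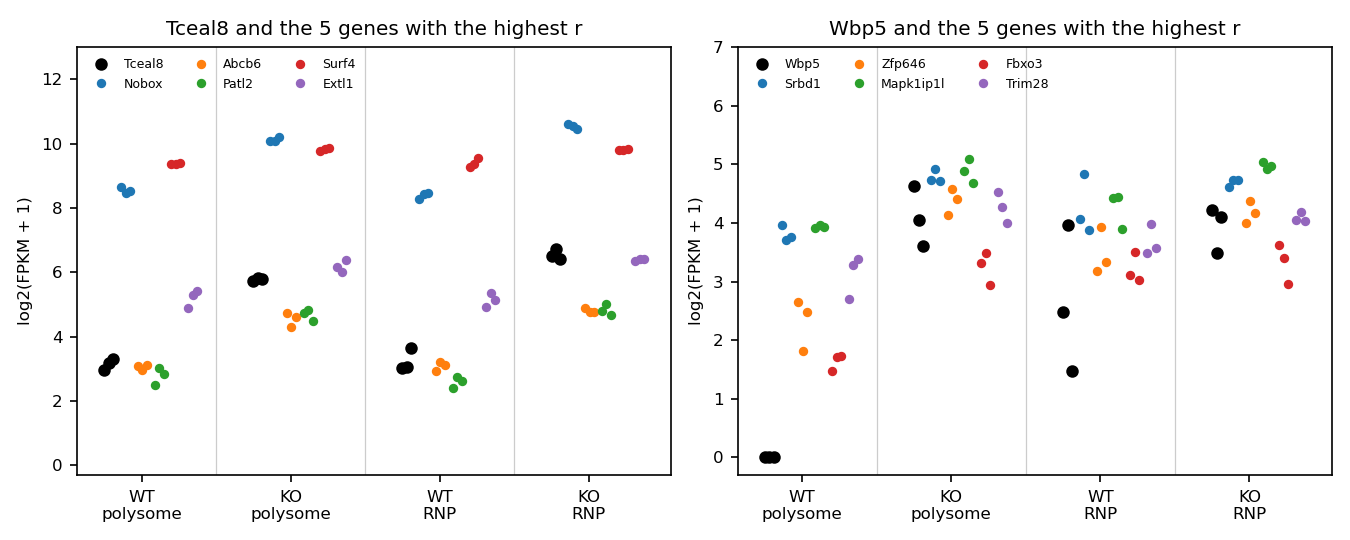
log2(FPKM + 1) in each of the 12 libraries of Tceal8 (left, black) and Wbp5 (right, black) with the 5 genes of highest Pearson r (colours), by group. Nobox, Abcb6 and Patl2 are higher in the KO than in the WT groups of both pools, as is Tceal8.

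Genes around the cluster were compared between genotypes. Of 123 RefSeq genes within 1 Mb of a member that are outside the family, 55 were in the table. In the polysome pool, where 989 of 9536 genes were called (10.4%; 5.64% higher in KO and 4.73% lower), 12 neighbours were tested, 2 were higher in KO and 0 were lower. In the RNP pool, where 2057 of 9931 genes were called (20.7%; 10.5% higher and 10.2% lower), 11 were tested, 2 were higher and 1 was lower.

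Morf4l2, which encodes a chromatin protein of the MRG family, lies 0.564 Mb from Tceal8 and was the most abundant neighbour at a mean of 330.03 FPKM. In polysomes it lay at 287.8, 336.6 and 275.1 FPKM in WT and at 623.7, 676.8 and 729.7 FPKM in KO, and the groups did not overlap. KO minus WT was 1.17 (SE 0.12; limma adjusted p = 0.00182) in the polysome pool and 1.08 (SE 0.15; limma adjusted p = 0.00145) in the RNP pool. It was the 1 neighbour called higher in polysomes in either genotype. Unlike Tceal8 in KO, it was higher in polysomes than in the RNP pool, by 1.44 (SE 0.17; limma adjusted p = 0.000976) in WT and 1.54 (SE 0.11; limma adjusted p = 1.62e-05) in KO.

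Gprasp1, the gene of a G protein-coupled receptor sorting protein, was listed at 0 in WT polysomes and at 3.40, 3.21 and 2.78 FPKM in KO polysomes (limma adjusted p = 0.016). It passed the filter through the KO libraries alone, which set its direction. It could not be tested without KO polysome replicate 1, 2 or 3, which leaves 1 neighbour higher in each case. Hnrnph2, an RNA-binding protein gene, was higher in the KO RNP pool by 0.64 (SE 0.16; limma adjusted p = 0.0227), a call lost without WT RNP replicate 1 (0.54) and without KO RNP replicate 1 (0.66) or 3 (0.52), without a filter (adjusted p = 0.0534) and without an intensity trend (0.084). Armcx5 was lower in the KO RNP pool, by −0.80 (SE 0.19; limma adjusted p = 0.0155), a call lost without KO RNP replicate 1 (−0.82) or 3 (−0.66). Armcx5 and Gprasp1 overlap and start at the same base, so their reads may be shared. Between pools, Arxes1 was lower in WT polysomes, by −2.11 (SE 0.48; limma adjusted p = 0.0202), a call lost without WT RNP replicate 1 (−1.98) or 2 (−1.97) and without a filter (adjusted p = 0.0579), while 2 neighbours were lower without WT polysome replicate 1. Timm8a1 was lower in KO polysomes, by −0.93 (SE 0.30; limma adjusted p = 0.0429), a call lost without KO polysome replicate 1 (−1.02) or 3 (−0.65) and without KO RNP replicate 1 (−0.90), 2 (−1.02) or 3 (−0.88), and also without a filter (adjusted p = 0.0849), without an intensity trend (0.0536) or with a replicate block (0.0634). In KO, 2 neighbours were higher in polysomes without KO polysome replicate 2 or KO RNP replicate 2 and with a pseudocount of 5, and 2 were lower with a filter at 5 FPKM. That filter left 1 neighbour higher in KO against WT in the polysome pool.

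**Figure D4:**
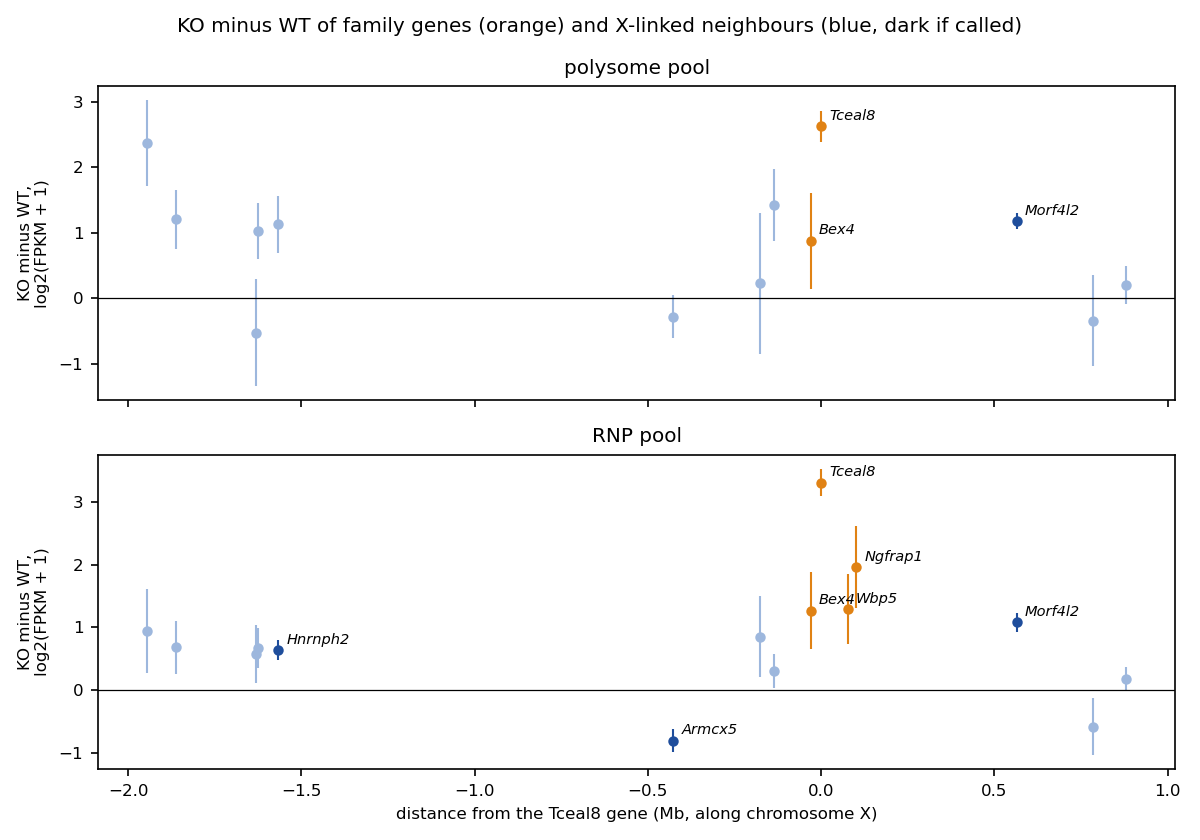
KO minus WT on the log2(FPKM + 1) scale with SE, against distance from the Tceal8 gene in Mb, for family genes (orange, described with no test) and X-linked neighbours (blue; dark blue if called). Tceal8 was at 2.62 in the polysome pool and 3.30 in the RNP pool, and Morf4l2 was at 1.17 and 1.08. Genes listed at 0 in a group, such as Wbp5 and Gprasp1 in WT polysomes, are not drawn.

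Of 308 X-linked genes outside the family tested in the polysome pool, 26 were higher in KO (8.44%) and 8 lower (2.60%). Of 9223 autosomal genes 509 were higher (5.52%) and 443 lower (4.80%). In the RNP pool 47 of 317 such X-linked genes were higher (14.8%) and 21 lower (6.62%), against 10.3% and 10.3% of autosomal genes. The median KO minus WT difference was 0.36 for X-linked and 0.10 for autosomal genes in the polysome pool, and 0.25 and 0.05 in the RNP pool. Genes that passed the filter through 1 group alone are in these medians. These counts moved with single libraries. Without KO polysome replicate 1, 2 or 3, 9, 6 and 5 X-linked genes were higher in the polysome pool. Without KO RNP replicate 1, 2 or 3, 28, 27 and 30 were higher in the RNP pool. Calls over all genes, in both directions together, fell too in these fits. They went from 989 to 522, 398 and 383 in the polysome pool, and from 2057 to 1255, 1259 and 1298 in the RNP pool. X-linked genes lower in KO numbered 5 without WT polysome replicate 1 or KO polysome replicate 2, 3 without KO polysome replicate 3, and 12 in the RNP pool without KO RNP replicate 1. In the polysome pool 12 X-linked genes were higher without a filter and 15 without an intensity trend. There 5 were lower without a filter, without an intensity trend or with a replicate block. Over all genes these settings gave 545, 508 and 672 calls, against 989 in the main fit.

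Transcription elongation factors, for which the TCEAL proteins are named, were examined as a list of 27 genes. In the polysome pool 1 of 25 tested was higher in KO (4%) and 0 were lower, where all genes gave 5.64% and 4.73%. The RNP pool gave 1 higher (4%) and 1 lower (4%), where all genes gave 10.5% and 10.2%. Other pseudocounts, filters, scalings or models gave 0 to 2 higher in the polysome pool and 1 to 2 in the RNP pool. Tceb3, which encodes elongin A, was higher in both, by 2.40 (SE 0.61; limma adjusted p = 0.0426) and 1.77 (SE 0.35; limma adjusted p = 0.00747). The first call was lost without WT polysome replicate 1 (2.33) or 3 (1.91) and without KO polysome replicate 1 (2.55), 2 (2.59) or 3 (2.08), and also with a pseudocount of 0.1 (adjusted p = 0.0851), without a filter (0.115), without an intensity trend (0.0711) or with a replicate block (0.0719). Tcea1, the gene of elongation factor SII itself, was lower in the KO RNP pool, by −1.14 (SE 0.17; limma adjusted p = 0.00182), and its difference in the polysome pool was −0.96 (SE 0.33; limma adjusted p = 0.0979). Without WT RNP replicate 1, 2 factors were higher in the RNP pool, and without WT RNP replicate 3, 3 were higher and 2 lower.

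Between the pools 3 of 25 elongation factors were higher in WT polysomes (12%) and 1 lower (4%), where all genes gave 7.97% and 6.72%. In KO polysomes 7 of 26 were higher (26.9%) and 4 lower (15.4%), where all genes gave 15.5% and 13.8%. Without WT polysome replicate 2, or with a replicate block, 2 were lower in WT, and without KO RNP replicate 3, 2 were lower in KO. Leo1, of the PAF complex, was higher in polysomes by 1.59 (SE 0.23; limma adjusted p = 0.00307) in WT and 2.30 (SE 0.19; limma adjusted p = 4.43e-05) in KO. Nelfa, of the pausing factor NELF, was lower in polysomes by −1.27 (SE 0.22; limma adjusted p = 0.0062) in WT and −0.88 (SE 0.14; limma adjusted p = 0.0015) in KO. Tceb2, which encodes elongin B, was higher by 1.82 (SE 0.36; limma adjusted p = 0.0113) in WT and 1.66 (SE 0.33; limma adjusted p = 0.00508) in KO. The third gene higher in WT was Tceb1, at 0.85 (SE 0.11; limma adjusted p = 0.00145), a call lost without an intensity trend (0.0682). In KO, Nelfcd was higher by 1.95 (SE 0.26; limma adjusted p = 0.000564) and Nelfe lower by −0.98 (SE 0.24; limma adjusted p = 0.0136), the latter not called without KO RNP replicate 3 (−0.92). Rtf1 was lower by −1.17 (SE 0.39; limma adjusted p = 0.0483) and passed the filter through the RNP libraries alone, which set its direction. The call was lost without KO polysome replicate 1 (−1.13), 2 (−1.12) or 3 (−1.27). It was also lost with a pseudocount of 0.1 or 5, quantile normalization, no filter or a replicate block (limma adjusted p = 0.0723).

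Tcea2 was the 1 elongation factor at 0 in all libraries, and Tceb1 was the most abundant at a mean of 765.5 FPKM. The summed level of the 27 was 1072.2 to 1635.6 FPKM per library.

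Markers of the cells around the oocyte were listed to check what else the samples held. In bulk samples fewer cells of a type and less RNA per cell cannot be told apart. Of 14 granulosa and cumulus markers 8 were tested in the polysome pool, 3 were higher in KO and 0 lower (all genes, 5.64% and 4.73%), and in the RNP pool 1 of 5 was higher and 0 lower (all genes, 10.5% and 10.2%). Inha lay in WT polysome libraries at 9.58, 0 and 8.11 FPKM and in the KO ones at 51.4, 39.4 and 39.5 FPKM, a difference of 3.27 (SE 0.80; limma adjusted p = 0.0364) that was not called without KO polysome replicate 1 (3.14), 2 (3.33) or 3 (3.33), nor with a pseudocount of 0.1 (adjusted p = 0.132), without a filter (0.115) or without an intensity trend (0.0909). Without WT polysome replicate 2, the library at 0, the difference was 2.17 (limma adjusted p = 0.00767) and was called. Inha was also higher in the KO RNP pool, by 2.79 (SE 0.43; limma adjusted p = 0.00238). Inhba was higher in KO polysomes by 2.94 (SE 0.50; limma adjusted p = 0.0105). Fshr was higher there by 2.22 (SE 0.47; limma adjusted p = 0.0224), a call lost without WT polysome replicate 1 (2.09) or 2 (2.09) and without a filter (adjusted p = 0.0547). Inhba and Fshr there, and Inha in the RNP pool, passed the filter through the KO libraries alone, which set their direction. Esr2 was lower in KO with no call, by −0.70 (SE 0.22; limma adjusted p = 0.0755) in the polysome pool and −0.43 (SE 0.14; limma adjusted p = 0.0623) in the RNP pool. Cyp19a1 differed by −0.54 (SE 0.45; limma adjusted p = 0.495) and 0.38 (SE 0.23; limma adjusted p = 0.269).

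Between the pools 0 of 5 granulosa and cumulus markers tested were higher in WT polysomes and 1 lower. The lower one was Fshr at −2.33 (SE 0.47; limma adjusted p = 0.0127), which passed through the RNP libraries alone, so its direction was set. Over all genes 7.97% were higher and 6.72% lower. In KO 2 of 7 were higher and 0 lower, where all genes gave 15.5% and 13.8%. These were Inha at 2.57 (SE 0.32; limma adjusted p = 0.000422) and Inhba at 2.35 (SE 0.59; limma adjusted p = 0.0151), the latter not called without KO RNP replicate 1 (2.01) or 2 (2.09) or without a filter (adjusted p = 0.0613).

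The summed level of the 14 granulosa and cumulus markers was 96.2 to 163 FPKM in WT polysomes and 117 to 157 FPKM in KO polysomes, and 98.2 to 120.3 FPKM and 100.5 to 122 FPKM in the RNP pools. Esr2 was the most abundant at a mean of 61.9 FPKM. Foxl2, which defines granulosa cells, was above 0 in KO RNP replicate 2 alone, at 1.01 FPKM, and Amh was at most 1.44 FPKM. Markers of theca and luteal cells, stroma, red blood cells and leukocytes summed to at most 4.05, 2.58, 0.468 and 8.71 FPKM in any library. Those of endothelium summed to 14.7 to 42.5 FPKM, most of it from Pecam1 at a mean of 25.0 FPKM, with Kdr at 0. The most abundant genes of the first 4 of these lists were Hsd3b1 (0.916 FPKM), Dcn (0.470 FPKM), Alas2 (0.130 FPKM) and Cd68 (1.90 FPKM), and Star, Lhcgr, Hba-a1, Hbb-bt, Hbb-bs, Ptprc, Cd3e and Itgam were at 0 in all libraries. Of red blood cell markers 0 were tested, and of the other 4 lists at most 1 (theca and luteal, stroma) or 2 (endothelium, leukocytes) in a comparison, so nothing is read from their calls. The part of follicle cell RNA in the levels of Tceal8 and Wbp5 was not tested.

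The oocyte markers did not move together between genotypes. In the polysome pool 4 of 14 were higher in KO and 3 lower (all genes, 5.64% and 4.73%), and in the RNP pool 6 were higher and 2 lower (all genes, 10.5% and 10.2%). The polysome count of 4 fell to 1 or 2 without WT polysome replicate 1 (1) or 2 (2) and without KO polysome replicate 1 (2), 2 (1) or 3 (1). Without an intensity trend 1 was higher and 0 were lower there, and without a filter 2 and 0. With a replicate block 2 were higher. In the RNP count, 3 were higher and 1 lower without an intensity trend, and 1 was lower without a filter. Over all genes the polysome calls were 508 without a trend, 545 without a filter and 672 with the block. The RNP calls fell from 2057 to 1511 without a trend and 1525 without a filter.

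Besides Nobox, Zp2 was higher in KO polysomes by 0.97 (SE 0.21; limma adjusted p = 0.0219), not called without WT polysome replicate 1 (0.87), without KO polysome replicate 1 (0.86), 2 (1.07) or 3 (1.00), or without an intensity trend. Kit was higher there by 0.69 (SE 0.17; limma adjusted p = 0.0387), not called without WT polysome replicate 1 (0.73), 2 (0.74) or 3 (0.61), without KO polysome replicate 2 (0.62) or 3 (0.61), without a filter, without an intensity trend or with a replicate block. Dazl was lower by −1.79 (SE 0.36; limma adjusted p = 0.0174) in the polysome pool, not called without KO polysome replicate 2 (−1.54), without a filter or without an intensity trend, and by −1.58 (SE 0.14; limma adjusted p = 0.000141) in the RNP pool.

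Zar1 was lower in KO polysomes by −1.15 (SE 0.29; limma adjusted p = 0.0387). This was not called without WT polysome replicate 1 (−1.17), 2 (−1.08) or 3 (−1.20) or KO polysome replicate 3 (−1.18), without a filter, without an intensity trend or with a pseudocount of 0.1. Mos was lower by −0.85 (SE 0.16; limma adjusted p = 0.013) in the polysome pool and −0.36 (SE 0.08; limma adjusted p = 0.00952) in the RNP pool, neither called without a filter or without an intensity trend. Figla and Ooep were higher in the KO RNP pool, by 1.26 (SE 0.28; limma adjusted p = 0.0123) and 0.92 (SE 0.10; limma adjusted p = 0.000363), and Figla was not called without KO RNP replicate 1 (1.21).

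The genotype difference of the pool ratio was called for 26 of 10949 genes (0.237%). None of the 14 neighbours tested was among them in limma, and 0 of these had an unadjusted p below 0.05. Of 26 elongation factors tested 0 were called and 4 had an unadjusted p below 0.05. Over all genes 1220 of 10949 (11.1%) had such a p in this comparison.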

How the data were processed

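The 12 libraries, 3 per group, were grouped by their sample labels. By the same labels the authors trimmed the reads, used TopHat2 2.0.13 for alignment (mm10), and obtained the FPKM of each gene from Cufflinks 2.2.1. Cuffnorm and Cuffdiff are also among the upstream tools listed. Whether either rescaled the FPKM between libraries was not examined, and the estimated depth assumes no such rescaling. The deposited table also holds the authors' log2 changes, p-values and q-values, which were not used here. The annotation release is not given in the sources used here. FPKM keeps no counts, and low values are the least precise.

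Linear models of limma 3.58.1 in R 4.3.3 were fitted to log2(FPKM + 1), with an intensity trend, on genes with at least 1 FPKM in at least 3 libraries of the comparison. P-values were adjusted by Benjamini-Hochberg over all genes tested, at 0.05. The script was tested on simulated data, with a pass limit that was set again after a first run had missed it. With 3 libraries against 3, an exact permutation test of 1 gene cannot go below 0.1, and differences can be missed. In the simulated data the smallest changes were not recovered and changes of a middle size only in part, so a gene that is not called may still differ by much. Python 3.11.15, pandas 2.3.3, numpy 2.4.6 and matplotlib 3.10.9 were used for the rest. Positions and promoters came from RefSeq (GRCm38.p6) and transcripts from GENCODE, on the same build.

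The genes named are the members, Lsm14b, the other family genes, up to 3 called genes in each direction of each list, the most abundant marker, and the 5 genes with the highest r with Tceal8 and with Wbp5. Gapdh, Ppia and Rps27, Foxl2, Amh and Cyp19a1 were added. Oocyte markers are given for KO against WT and not between pools. The members and lists were chosen with earlier results of these data known. Of the gene lists planned, 1 is left out. The alternatives were other pseudocounts, filters, scalings, a replicate block, no intensity trend and each library left out.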

Additional observations from a re-analysis of the deposited data

How the results depend on the processing

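The KO minus WT difference of Tceal8 is described under the 14 alternatives of each pool. It ran from 2.19 to 2.75 in the polysome pool and from 2.85 to 3.51 in the RNP pool. The gene was chosen for this difference, so nothing is read from its sign. A pseudocount of 5 gave the lowest of each, 2.19 and 2.85, as a larger pseudocount shrinks differences by construction. The lower level of Tceal8 in KO polysomes was called under all 14 alternatives, at adjusted p from 0.0012 to 0.0193.

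Genes called for KO against WT in the polysome pool numbered 989, and 545 with no filter, 508 with no intensity trend and 383 to 790 with 1 library left out. The RNP pool gave 2057, and 1255 to 1911 with 1 library left out. Between pools, WT gave 1406, and 728 with no intensity trend and 780 to 1212 with 1 library left out, and KO gave 2881, and 2030 to 2909. The genotype difference of the ratio gave 26 genes, 6 with no intensity trend and 0 to 46 with 1 library left out. Fewer libraries lower the degrees of freedom, and other causes were not tested.

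Of 18 same-numbered pairs of libraries 0 had a correlation of deviations over 0.1 (−0.0207 to 0.0256), so no shared deviation was seen. This cannot tell whether same-numbered pools came from the same gradient, and the main tests took the libraries as unpaired. With the replicate block, called genes numbered 672 and 1799 for KO against WT in the polysome and RNP pools, 1165 and 2720 between pools in WT and KO, and 0 for the ratio. KO polysome replicate 2 held Mir300 at 170809 FPKM, and its summed FPKM of 698228 was the highest of the 12 libraries. Mir300 was at 0 in all others. Without Mir300 the sum was 527419 FPKM, below the 539151 FPKM of KO polysome replicate 3.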
